A study of Homo sapiens with 3 samples.

Results

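Type I interferon stimulated genes were followed in LNCaP cells, an established human prostate cancer line. The set is a list of 45 gene symbols, chosen with earlier results of these data known. Each was matched by its GENCODE gene name to 1 of the 58884 rows of the count table. DDX58, which encodes the RNA sensor RIG-I and is now named RIGI, is given under its GENCODE release 29 name. LNCaP cells had been grown for 24 h and then held for 72 h in medium that was 50% conditioned medium (CM), with 2% fetal bovine serum. The media were PPAT-CM (labelled tumor), PVAT-CM (labelled normal) and control-CM, with 1 library for each. The title of the series gives PPAT as periprostatic adipose tissue, while PVAT is not spelled out. The labels do not say how the media were made or from how many donors. No mutation, drug or cytokine is named for any library, and all 3 come from this line.

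Type I interferons bind the receptor pair IFNAR1 and IFNAR2, whose kinases JAK1 and TYK2 phosphorylate STAT proteins, STAT2 among them. Together with IRF9 these form ISGF3, the factor that binds the interferon-stimulated response element (ISRE) in the promoters of its target genes. Many of the targets encode proteins that sense foreign RNA, block viral entry or translation, or attach the ubiquitin-like protein ISG15 to other proteins. Interferon gamma acts through another element, the GAS, and it shares a good part of these targets.

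The libraries held between 14174241 and 16965584 counts, and the 45 genes together held 21640 counts in PPAT-CM, 14064 in PVAT-CM and 12133 in control-CM. Mitochondrially encoded genes took 15.5% of the counts in PPAT-CM, 21.1% in PVAT-CM and 30.8% in control-CM, so levels were scaled with TMM factors and are given as scaled CPM, the usual count share after TMM adjustment of the library total. A gene was called measured when its mean count over the 3 libraries was at least 50. All 10 luminal prostate and LNCaP markers were measured, and KLK3 had 4577 counts in PPAT-CM, 9982 in PVAT-CM and 10286 in control-CM. Of 14 leukocyte markers 6, PTPRC and CD3E among them, were at 0 in every library, and the 14 summed to 38, 31 and 30 counts in PPAT-CM, PVAT-CM and control-CM. ITGAM alone gave 21, 0 and 1 of these. The adipocyte genes ADIPOQ, LEP, LPL and FABP4 were at 0 throughout, while the 8 adipocyte markers summed to 170, 51 and 74 counts in the same order, mostly from PLIN1, with 89, 27 and 13 counts, GPD1, with 47, 5 and 27, and PLIN4, with 33, 19 and 34. Fibroblast markers summed to 534, 371 and 792 counts, mostly from COL1A1, with COL1A2, DCN and PDGFRA at 0, and endothelial markers summed to 36, 16 and 27. The part of these differences in the results below was not tested. With 1 library per medium there is no estimate of the spread between cultures, so no test was possible. Differences below are between libraries, and the 95% intervals given after fold values cover counting error only. In a bulk library, more cells that express a gene and more RNA per cell cannot be told apart.

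The ISRE core, searched as GAAANNGAAA on both strands (TTTCNNTTTC on the other), was found in the promoters of most members. RefSeq promoter windows (GRCh38.p14, from 250 bases before to 50 after a start site) were matched for 36 of the 45 genes, and 25 of the 36 held the core in at least 1 window. Over all 27305 genes with a window in the same table the share was 4.38%, against 69.4% of the members. Members were put on the list as interferon targets, so this difference describes the list and is not a result of the culture media. The stretches shown run from 160 bases before to 10 after the start site, on the gene's strand, and capitals mark the ISRE core. The genes shown all carry a match and cover 5 of the 7 patterns against control-CM described below, all but those of DHX58 and MX1. No gene without a match, such as UBE2L6, is shown. LGALS3BP (chr17:78979914-78980083, minus strand), DTX3L (chr3:122564178-122564347, plus) and IFITM3 (chr11:320851-321020, minus) were highest in PPAT-CM. OAS3 (chr12:112938314-112938483, plus) was higher in both adipose media. IFIT1 (chr10:89392463-89392632, plus) and IFI6 (chr1:27672183-27672352, minus) were highest in PVAT-CM, and EIF2AK2 (chr2:37156971-37157140, minus) was highest in control-CM.
LGALS3BP: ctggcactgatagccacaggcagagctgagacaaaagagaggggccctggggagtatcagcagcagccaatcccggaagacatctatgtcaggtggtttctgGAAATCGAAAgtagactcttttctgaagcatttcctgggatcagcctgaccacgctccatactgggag
DTX3L: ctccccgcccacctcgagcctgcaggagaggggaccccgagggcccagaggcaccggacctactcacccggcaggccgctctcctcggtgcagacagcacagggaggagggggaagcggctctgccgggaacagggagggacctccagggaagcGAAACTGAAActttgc
IFITM3: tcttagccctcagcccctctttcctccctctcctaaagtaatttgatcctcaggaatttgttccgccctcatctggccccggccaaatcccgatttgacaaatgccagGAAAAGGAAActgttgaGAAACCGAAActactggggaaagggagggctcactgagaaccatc
OAS3: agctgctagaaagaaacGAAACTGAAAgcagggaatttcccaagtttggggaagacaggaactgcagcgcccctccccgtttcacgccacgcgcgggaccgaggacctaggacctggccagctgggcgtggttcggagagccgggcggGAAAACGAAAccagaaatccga
IFIT1: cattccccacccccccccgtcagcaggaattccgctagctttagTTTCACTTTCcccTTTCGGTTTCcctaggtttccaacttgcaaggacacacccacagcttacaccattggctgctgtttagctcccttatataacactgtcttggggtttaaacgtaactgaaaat
IFI6: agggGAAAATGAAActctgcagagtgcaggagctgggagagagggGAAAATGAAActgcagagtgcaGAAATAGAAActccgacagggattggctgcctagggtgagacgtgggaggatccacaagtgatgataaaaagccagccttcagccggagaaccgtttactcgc
EIF2AK2: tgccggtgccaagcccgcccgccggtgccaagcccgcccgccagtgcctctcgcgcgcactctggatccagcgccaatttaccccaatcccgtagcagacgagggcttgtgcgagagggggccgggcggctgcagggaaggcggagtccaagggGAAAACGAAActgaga
IFI6 carried 3 matches, between 156 and 84 bases before its start site, and IFIT1 carried 2, between 116 and 94 bases before. LGALS3BP had a single match, 58 to 49 bases before the start. The match of DTX3L, at chr3:122564332-122564341, is the same stretch of DNA that lies 41 to 32 bases before a start site of PARP9 on the opposite strand, so this gene pair shares it. The core was present in 8 of the 10 windowed genes that were at least 1.5-fold higher in PPAT-CM than in PVAT-CM, and in 3 of the 3 that were at least 1.5-fold lower. It was also present in 7 of the 13 that differed by less. UBE2L6, which had the largest ratio of PPAT-CM to PVAT-CM, had no match in either of its windows. A GAS core, TTCNNNGAA, was found in 8 of the 36 genes (22.2%) and in 9.38% of all genes with a window, and IFI35, PARP14 and MX1 were the genes higher in PPAT-CM that held it. A match says only that these letters are present.

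**Figure D1:**
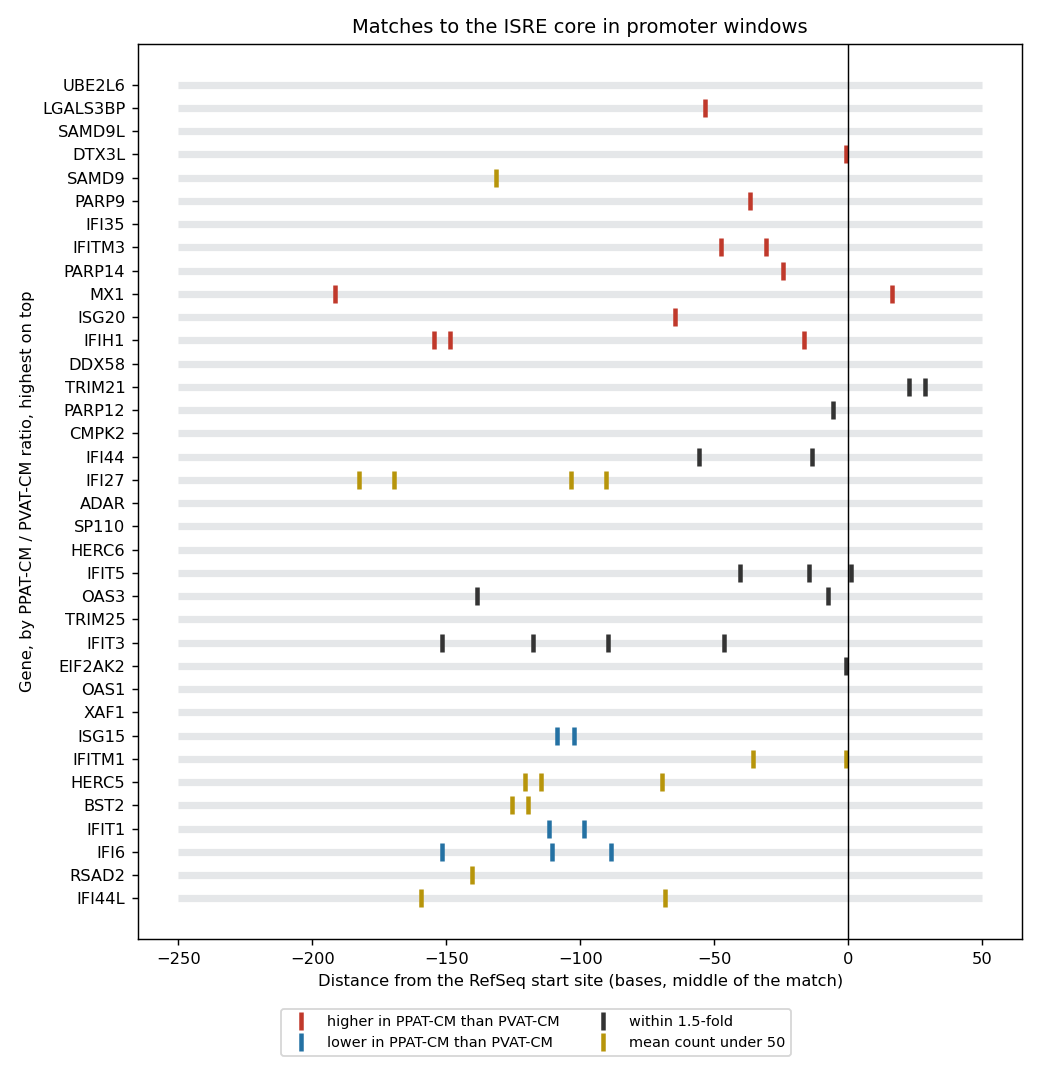
Positions of ISRE core matches (ticks) in the RefSeq promoter windows (grey bars) of 36 interferon stimulated genes, in bases from the start site, with genes ordered from the highest to the lowest PPAT-CM to PVAT-CM ratio. Ticks of a gene with several start sites are drawn together. The order includes 10 genes with a mean count under 50, whose places rest on few counts. Matches occur at the top, in the middle and at the bottom of the order, in 8 of 10 genes higher in PPAT-CM and in 3 of 3 lower in PPAT-CM.

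Of the 45 genes 33 were measured. In PPAT-CM against control-CM 18 of the 33 were at least 1.5-fold higher (54.5%), while 12.0% of the 12256 genes measured in all were, and 2 were at least 1.5-fold lower (6.06%), against 8.71% of all genes. In PVAT-CM against control-CM 11 of 33 were higher (33.3%), against 3.15% of all genes, and 1 was lower (3.03%), against 3.49%. The median log2 ratio of the measured members was 0.72 for PPAT-CM and 0.32 for PVAT-CM, and that of all genes was 0.03 and 0.02. In PPAT-CM against PVAT-CM 13 of 33 were higher (39.4%), against 8.56% of all genes, and 4 were lower (12.1%), against 6.07%, with a median of 0.27 against 0.02. Both comparisons with control-CM use the same control library. The members were chosen with earlier results of these data known, so these shares are not independent of the libraries. UBE2L6 and TRIM22 passed the count filter only through their PPAT-CM counts, so their being higher there was partly set by the filter. The counting interval excluded 1 for every member past 1.5-fold in each of the 3 comparisons. With library totals in place of TMM factors the shares of all genes became 24.1% higher and 4.39% lower for PPAT-CM against control-CM, and 23 members were higher and 1 lower.

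The pattern over the 3 libraries was not a single one. Of the 33 genes 22 had their highest scaled level in PPAT-CM (66.7%), against 41.5% of all genes measured. PVAT-CM was highest for 8 (24.2%), close to the 26.2% of all genes, and control-CM for 3 (9.09%), against 32.3%. The lowest level was in control-CM for 24 of the 33, and for 38.0% of all genes. Against control-CM 6 genes were at least 1.5-fold higher in both adipose media (UBE2L6, LGALS3BP, IFITM3, IFI44, OAS3 and IFIT3), which is 18.2% of the members, against 2.01% of all genes measured. A further 12 (36.4%, against 9.91%) were higher in PPAT-CM and within 1.5-fold in PVAT-CM, and 4 (IFIT2, OAS1, OASL and IFI6; 12.1%, against 1.09%) were higher in PVAT-CM and within 1.5-fold in PPAT-CM. A total of 8 genes (24.2%, against 76.5%) were within 1.5-fold in both, among them ISG15, ADAR, EIF2AK2 and PARP10. IFIT1, DHX58 and MX1 had a pattern each. The shared control library bears on all of these counts, as does the choice of members with earlier results known. A gene past the threshold in 1 adipose medium and not in the other need not differ between them, and the direct ratio of PPAT-CM to PVAT-CM is given for the genes at the ends of that order.

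**Figure D2:**
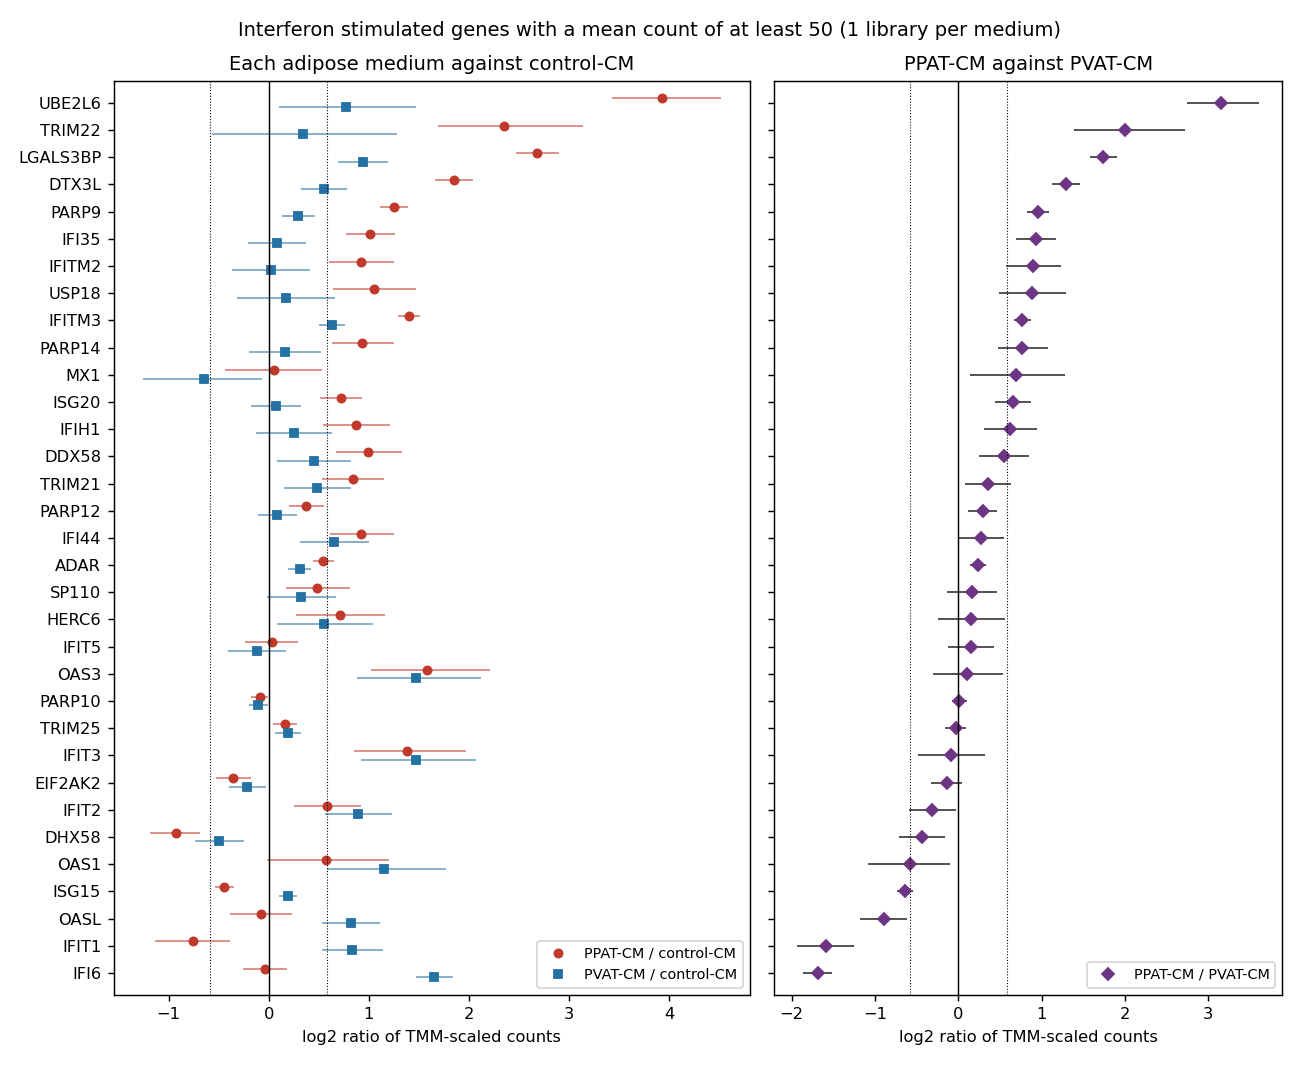
Log2 ratios of TMM-scaled counts for the 33 measured interferon stimulated genes, ordered by the PPAT-CM to PVAT-CM ratio. The left panel sets PPAT-CM (circles) and PVAT-CM (squares) against control-CM, the right panel sets PPAT-CM against PVAT-CM, bars are 95% counting intervals and dotted lines mark 1.5-fold. UBE2L6, TRIM22, LGALS3BP and DTX3L lie farthest to the right for PPAT-CM, and IFI6 and IFIT1 lie to the left of all others in the right panel.

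The ISG15 conjugation genes had the widest range of PPAT-CM to control-CM ratios of the role groups. ISG15 itself (ENSG00000187608, chromosome 1, 1001138 to 1014540) had 1772 counts in PPAT-CM, 2139 in PVAT-CM and 1990 in control-CM. It was 1.36-fold lower in PPAT-CM (1.28 to 1.45) and 1.14-fold higher in PVAT-CM (1.08 to 1.22) than in control-CM, and PPAT-CM was 1.56-fold below PVAT-CM (1.46 to 1.66). With library totals its log2 ratio to control-CM was -0.204 in PPAT-CM, in place of -0.445. In PVAT-CM the ratio was 0.326 in place of 0.193. Per kilobase of exon ISG15 was the most abundant member in PVAT-CM and control-CM, at 159 and 139 scaled CPM per kilobase, whereas in PPAT-CM IFITM3 was above it, at 108 against 102. UBE2L6, the conjugating enzyme that passes ISG15 on to its targets (ENSG00000156587, chromosome 11, 57551656 to 57568284), had 578 counts in PPAT-CM, 50 in PVAT-CM and 31 in control-CM. These made a 15.4-fold difference between PPAT-CM and control-CM (10.7 to 22.9), 1.72-fold between PVAT-CM and control-CM (1.08 to 2.78) and 8.96-fold between PPAT-CM and PVAT-CM (6.71 to 12.2). The gene of the enzyme was thus highest in PPAT-CM, the library in which the gene of the modifier it carries was lowest. UBE2L6 passed the count filter only through PPAT-CM. USP18, the protease that removes ISG15 and also damps the interferon receptor, had 176, 74 and 70 counts in PPAT-CM, PVAT-CM and control-CM and was 2.07-fold higher in PPAT-CM than in control-CM (1.56 to 2.78). Of the 75-base words of USP18 transcripts, 18.3% also occur in its copy USP41, which had at most 1 count in any library. HERC6, an ISG15 ligase in mouse, had 129, 90 and 65 counts and was 1.64-fold higher in PPAT-CM than in control-CM (1.21 to 2.24). The ligase TRIM25, which also activates RIG-I, had 1251, 992 and 922 counts, with a ratio of 1.12 (1.03 to 1.22), and HERC5, the main human ISG15 ligase, was under the filter with 10, 17 and 13 counts.

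The ADP-ribosyltransferase PARP9 and the ubiquitin ligase DTX3L, which form a complex, were both higher in PPAT-CM. DTX3L (ENSG00000163840, chromosome 3, 122564238 to 122575203) had 1222 counts in PPAT-CM, 386 in PVAT-CM and 280 in control-CM, and PARP9 (ENSG00000138496, chromosome 3, 122527924 to 122564577) had 1624, 651 and 564. DTX3L was 3.60-fold (3.16 to 4.11) and PARP9 2.38-fold higher (2.16 to 2.62) in PPAT-CM than in control-CM, and 2.46-fold (2.19 to 2.76) and 1.93-fold higher (1.76 to 2.12) than in PVAT-CM. In PVAT-CM against control-CM the ratios were 1.47 (1.25 to 1.72) for DTX3L and 1.23 (1.10 to 1.38) for PARP9. The pair lies head to head, and 217 bases of their exons overlap on opposite strands, which is 3.70% of the exons of DTX3L. No source used here gives the strand setting of the counting, so reads from those bases cannot be assigned with certainty. PARP14, which lies nearby on the same chromosome, had 297, 135 and 128 counts, which put PPAT-CM 1.91-fold above control-CM (1.55 to 2.37). PARP12, with 692, 438 and 440 counts, was 1.30-fold higher (1.15 to 1.46). PARP10, with 2306, 1773 and 2027 counts, was at 0.938 of the control level (0.884 to 0.997), a direction that turned with library totals (log2 0.15), and an overlapping gene on the opposite strand takes in 324 bases of its exons. Neither reached 1.5-fold in any comparison.

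Among the membrane proteins that restrict virus entry, IFITM3 (ENSG00000142089, chromosome 11, 319669 to 327537) had 2687 counts in PPAT-CM, 1223 in PVAT-CM and 840 in control-CM. It was 2.64-fold higher in PPAT-CM (2.44 to 2.86) and 1.55-fold higher in PVAT-CM (1.42 to 1.69) than in control-CM, and the counting intervals of the 3 levels did not overlap. IFITM2 had 264, 110 and 115 counts in the same order and was 1.89-fold higher in PPAT-CM than in control-CM (1.52 to 2.38), with no difference beyond counting error in PVAT-CM (0.776 to 1.33). IFITM1 had only 13, 19 and 9 counts. The annotated exons of IFITM1 and IFITM2 overlap by 351 bases on the same strand, 32.5% and 22.7% of their exons. Of the 75-base words of IFITM1 29.8% occur in another gene, and 24.2% of those of IFITM2, mostly in each other. For IFITM3 the share was 8.05%. Reads from these words may have been dropped or exchanged. BST2, the tetherin that holds budding virions, had 2, 4 and 3 counts in PPAT-CM, PVAT-CM and control-CM.

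The IFIT genes, which encode proteins that bind foreign RNA and block its translation, lie side by side on chromosome 10 and had different patterns. IFIT1 (ENSG00000185745, 89392546 to 89406486) had 104 counts in PPAT-CM, 243 in PVAT-CM and 145 in control-CM. It was 1.69-fold lower in PPAT-CM (1.30 to 2.20) and 1.78-fold higher in PVAT-CM (1.45 to 2.21) than in control-CM, and in the direct comparison with PVAT-CM it was 3.01-fold lower in PPAT-CM (2.39 to 3.83). IFIT1 was the only measured member past 1.5-fold in opposite directions in the 2 adipose media. IFIT3 (ENSG00000119917, 89327894 to 89340971), whose protein binds that of IFIT1, had 118, 97 and 37 counts and was higher in both media, 2.63-fold in PPAT-CM (1.80 to 3.92) and 2.79-fold in PVAT-CM (1.89 to 4.19). IFIT2, with 216, 208 and 119 counts, was 1.5-fold (1.19 to 1.89) and 1.86-fold higher (1.48 to 2.35) than in control-CM, and its log2 ratio in PPAT-CM, 0.58, lay just short of the threshold. IFIT5, with 266, 186 and 215 counts, did not differ beyond counting error in either medium. The intervals were 0.849 to 1.23 for PPAT-CM and 0.752 to 1.12 for PVAT-CM against control-CM. Between PPAT-CM and PVAT-CM the ratio of IFIT2 was 0.805, with an interval that reached close to 1 (0.663 to 0.979). That of IFIT3 was 0.943, with an interval that included 1 (0.715 to 1.25).

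The oligoadenylate synthetases make the messenger that activates RNase L when double-stranded RNA is present. OAS3 (ENSG00000111331, chromosome 12, 112938352 to 112973249) had 117 counts in PPAT-CM, 84 in PVAT-CM and 32 in control-CM, and was 3.02-fold higher in PPAT-CM (2.02 to 4.61) and 2.79-fold higher in PVAT-CM (1.84 to 4.34). Its neighbour OAS1 had 67, 78 and 37 counts and was 1.49-fold (0.985 to 2.30) and 2.24-fold higher (1.5 to 3.41), and PPAT-CM was 1.5-fold below PVAT-CM (1.07 to 2.11). OAS2, in the same cluster, had 11 counts in PPAT-CM, 6 in PVAT-CM and 0 in control-CM. With control-CM set to a floor of 3 counts, the ratios were 3.02 for PPAT-CM and 2.13 for PVAT-CM. They carry no counting interval, so they are not lower limits. All genes of this chromosome 12 cluster were thus lowest in control-CM. OASL, a relative without synthetase activity, lies elsewhere on the chromosome and had 185, 267 and 161 counts. It was 1.76-fold higher in PVAT-CM (1.45 to 2.16) than in control-CM but not in PPAT-CM, where the ratio was 0.948 (0.763 to 1.18), and PPAT-CM was 1.86-fold below PVAT-CM (1.54 to 2.26). EIF2AK2, the kinase PKR that stops translation on double-stranded RNA, had 516, 441 and 544 counts and was lower in both media, 1.28-fold in PPAT-CM (1.13 to 1.45) and 1.16-fold in PVAT-CM (1.02 to 1.32). With library totals its log2 ratios were -0.113 in PPAT-CM and -0.081 in PVAT-CM, in place of -0.354 and -0.213. ADAR, which edits adenosines in double-stranded RNA, had 2154, 1415 and 1217 counts and was 1.46-fold (1.36 to 1.57) and 1.24-fold higher (1.14 to 1.34).

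**Figure D3:**
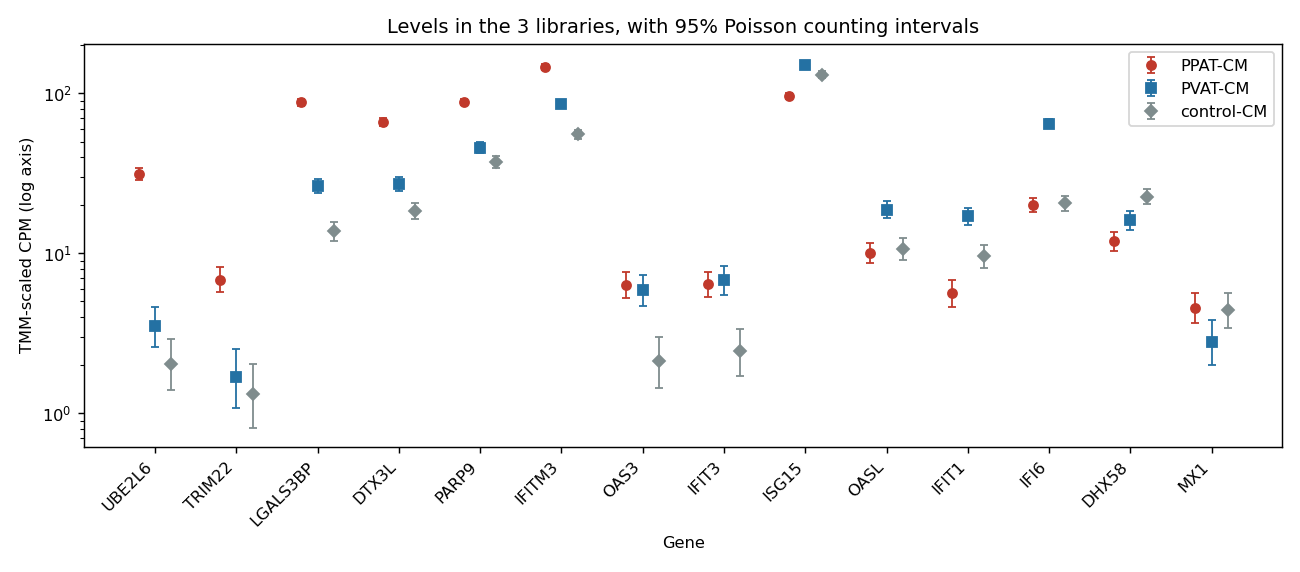
TMM-scaled CPM on a log axis of 14 interferon stimulated genes in the PPAT-CM, PVAT-CM and control-CM library, with 95% Poisson counting intervals. UBE2L6, TRIM22, LGALS3BP, DTX3L and PARP9 stand highest in PPAT-CM, OAS3 and IFIT3 are lowest in control-CM, and OASL, IFIT1 and IFI6 stand highest in PVAT-CM.

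The RNA sensors were split. DDX58 (RIG-I) had 271 counts in PPAT-CM, 144 in PVAT-CM and 112 in control-CM, and IFIH1 (MDA5) had 246, 124 and 111. DDX58 was 2.0-fold (1.60 to 2.51) and IFIH1 1.83-fold higher (1.46 to 2.31) in PPAT-CM than in control-CM, and in PVAT-CM the ratios were 1.37 (1.06 to 1.77) and 1.19 (0.912 to 1.55). DHX58, which encodes the third sensor of this family, LGP2, which lacks the signalling domains of the others, went the other way. It had 218, 229 and 343 counts and was 1.91-fold lower in PPAT-CM (1.60 to 2.27) and 1.41-fold lower in PVAT-CM (1.19 to 1.67) than in control-CM. DHX58 and IFIT1 were the 2 measured members past 1.5-fold on the lower side in PPAT-CM, and with library totals IFIT1 fell short of it (log2 -0.51) while DHX58 did not (-0.69).

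Of the other antiviral effectors, TRIM22 (ENSG00000132274, chromosome 11, 5689689 to 5737089) had 126 counts in PPAT-CM, 24 in PVAT-CM and 20 in control-CM and was 5.20-fold higher in PPAT-CM than in control-CM (3.23 to 8.80). In PVAT-CM its ratio was 1.28, with an interval that included 1 (0.676 to 2.44). Its level in PPAT-CM was 4.07-fold that in PVAT-CM (2.62 to 6.59), and 9.79% of its 75-base words occur in other genes, mostly OR56B1, which had no counts. The antibody receptor TRIM21, with 282, 171 and 130 counts, was higher in both, 1.79-fold in PPAT-CM (1.45 to 2.22) and 1.40-fold in PVAT-CM (1.11 to 1.77), and the exonuclease ISG20, with 541, 267 and 271 counts, was 1.65-fold higher in PPAT-CM (1.42 to 1.91). MX1, the dynamin-like GTPase often used as a marker of interferon action, had 84, 40 and 67 counts in PPAT-CM, PVAT-CM and control-CM. Its ratio to control-CM was 1.03 in PPAT-CM (0.741 to 1.45), and it was 1.57-fold lower in PVAT-CM (1.05 to 2.39), the only measured member past 1.5-fold on that side there, though not with library totals (log2 -0.52). MX2 had 4, 1 and 0 counts. RSAD2, which encodes viperin, had 11, 36 and 23 counts, and its neighbour CMPK2 had 30, 19 and 48. SAMD9, with 47, 18 and 11 counts, had a ratio of 3.52 between PPAT-CM and control-CM (1.80 to 7.54), and SAMD9L had 1 count in PPAT-CM and none elsewhere. These last 5 genes were under the filter and enter none of the shares above.

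LGALS3BP, a secreted galectin-binding glycoprotein (ENSG00000108679, chromosome 17, 78971238 to 78980109), had 1617 counts in PPAT-CM, 376 in PVAT-CM and 208 in control-CM. It was 6.41-fold higher in PPAT-CM (5.55 to 7.44) and 1.92-fold higher in PVAT-CM (1.62 to 2.29) than in control-CM, and 3.33-fold higher in PPAT-CM than in PVAT-CM (2.98 to 3.74). IFI6, a small protein of mitochondria and the endoplasmic reticulum with an antiapoptotic role in other cells (ENSG00000126709, chromosome 1, 27666061 to 27672218), had another order. With 369 counts in PPAT-CM, 922 in PVAT-CM and 312 in control-CM, it was 3.14-fold higher in PVAT-CM than in control-CM (2.76 to 3.59). In PPAT-CM it did not differ from control-CM beyond counting error, with a ratio of 0.976 (0.837 to 1.14), and it was 3.22-fold below its PVAT-CM level (2.85 to 3.65). LGALS3BP and IFI6 thus stood near opposite ends of the ordering, each with ample counts in its highest library. IFI35, with 484, 197 and 198 counts, was 2.02-fold higher in PPAT-CM than in control-CM (1.71 to 2.39) with a PVAT-CM ratio of 1.06 (0.865 to 1.30), and IFI44, with 274, 176 and 119 counts, was higher in both media, 1.90-fold (1.53 to 2.38) and 1.57-fold (1.24 to 2.0). SP110, which encodes a nuclear body protein, had 221, 153 and 130 counts and was 1.40-fold (1.12 to 1.75) and 1.25-fold higher (0.985 to 1.59). Under the filter, IFI44L had 2, 16 and 6 counts, IFI27 31, 20 and 20, and XAF1, an antagonist of the apoptosis inhibitor XIAP, 4, 5 and 0.

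Sorted by the adipose medium with the higher level, 13 genes were at least 1.5-fold higher in PPAT-CM than in PVAT-CM: UBE2L6, TRIM22, LGALS3BP, DTX3L, PARP9, IFI35, IFITM2, USP18, IFITM3, PARP14, MX1, ISG20 and IFIH1. At least 1.5-fold lower were 4 genes, IFI6, IFIT1, OASL and ISG15, and 16 lay between. IFIH1 stood just inside the upper threshold with a log2 ratio of 0.62 and DDX58 just outside with 0.54. At the other end ISG15 was just inside with -0.64 and OAS1 just outside with -0.58. With DESeq2 size factors, with upper quartile factors and with TMM factors computed without mitochondrial genes, 5 genes were past the lower threshold in place of 4, and with library totals there were 3, since ISG15 then stood at -0.53. On the upper side 12 genes passed with upper quartile factors, where IFIH1 stood at 0.56, and 14 with library totals, where DDX58 stood at 0.65. Members under the filter gave RSAD2 and IFI44L the lowest ratios of all, 0.237 (0.109 to 0.476) and 0.0969 (0.0108 to 0.412), on 11 and 36 counts and on 2 and 16 counts in PPAT-CM and PVAT-CM. By role, 2 of 2 measured membrane restriction factors, 3 of 4 other antiviral effectors and 3 of 5 PARP and DTX3L genes were higher in PPAT-CM, against 8.56% of all genes. The count was 2 of 5 for ISG15 conjugation and 2 of 5 for other interferon-induced genes, with 1 lower in each, and 1 of 3 for the RNA sensors. It was 0 of 4 for the IFIT genes and 0 of 5 for the double-stranded RNA enzymes, with 1 lower in each, and in groups this small 0 is near the share of all genes. TRIM22, an antiviral effector, and UBE2L6, an ISG15 conjugation gene, are counted here but passed the filter only through PPAT-CM. The membrane restriction factors IFITM1 and BST2, under the filter, had PPAT-CM to PVAT-CM ratios of 0.53 (0.241 to 1.13) and 0.388 (0.0351 to 2.705).

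**Figure D4:**
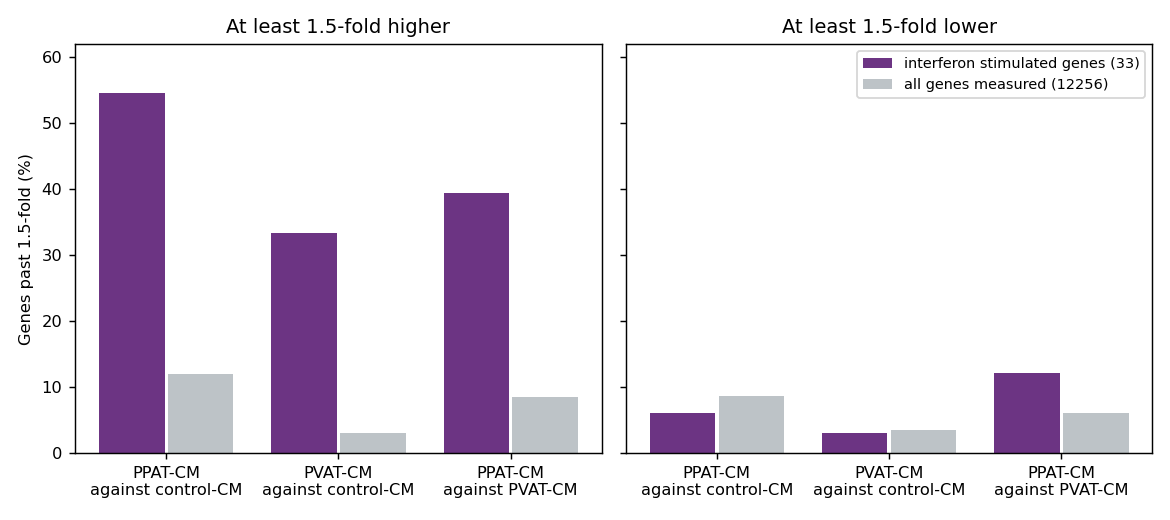
Percent of genes at least 1.5-fold higher (left) and lower (right) in each comparison, for the 33 measured interferon stimulated genes (purple) and all 12256 genes measured (grey). On the higher side the interferon stimulated genes reach 54.5% against 12.0%, 33.3% against 3.15% and 39.4% against 8.56%, and on the lower side they reach at most 12.1%.

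The interferon genes themselves were almost undetected. Of 21 ligand genes 18 were at 0 in every library, and the whole list summed to 1 count in PPAT-CM, 8 in PVAT-CM and 1 in control-CM. A gene at 0 could still reach 0.163 scaled CPM in PPAT-CM, 0.210 in PVAT-CM and 0.198 in control-CM, the level of 3 counts. The 8 counts in PVAT-CM were 6 of IFNL1, a type III interferon, and 1 each of IFNB1 and IFNL2, and IFNL1 had 1 count in each other library. The receptor subunit IFNAR1 had 1266, 660 and 578 counts in PPAT-CM, PVAT-CM and control-CM and was 1.81-fold higher in PPAT-CM than in control-CM (1.64 to 2.0). Its partner IFNAR2 had 48, 12 and 38 counts, under the filter.

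Of 15 genes on the signalling list 11 were measured, and 3 were at least 1.5-fold higher in PPAT-CM than in control-CM (IRF1 and IRF2 among them) while JAK2 was 1.60-fold lower (1.42 to 1.80). Over all genes 12.0% were higher and 8.71% lower in this comparison. IRF1, a transcription factor that binds ISRE-like sites, had 320 counts in PPAT-CM, 133 in PVAT-CM and 84 in control-CM, 3.14-fold (2.46 to 4.04) and 1.68-fold (1.27 to 2.24) above control-CM, and it was the only one of the 11 measured genes past 1.5-fold in PVAT-CM against control-CM. Of the ISGF3 genes, STAT2 had 1271, 802 and 811 counts and was 1.29-fold higher in PPAT-CM than in control-CM (1.18 to 1.41), and IRF9 had 66, 30 and 37 counts. IRF7, itself an interferon target in many cells, had 1488, 1199 and 1434 counts and stood at 0.856 (0.796 to 0.921) and 0.890 (0.823 to 0.961) of control-CM. On the log2 scale its difference in PPAT-CM was -0.22, smaller in size than the shift of 0.24 between TMM factors and library totals. The kinase gene JAK1, whose expression has been described as lacking in LNCaP cells, had 424, 259 and 333 counts, a ratio of 1.05 between PPAT-CM and control-CM (0.908 to 1.22). That is 3.65, 2.88 and 3.48 scaled CPM per kilobase in PPAT-CM, PVAT-CM and control-CM. Gene counts do not show whether a transcript is intact or translated.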

How the data were processed

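RNA of 3 LNCaP libraries, 1 per medium, was sequenced, and the authors deposited whole-number counts per Ensembl gene with no scaling. FastQC, Trimmomatic, HISAT2, featureCounts, edgeR and the build GRCh38 are named per the submitters' processing notes. The versions, the settings and the handling of strand are not given in the sources used. The table has 58884 rows, 58611 of them in GENCODE release 29, whose names, lengths and coordinates were used. Symbols renamed after that release were matched through a gene name table.

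TMM factors (edgeR 4.0.16, R 4.3.3) were 1.08 for PPAT-CM, 1.01 for PVAT-CM and 0.917 for control-CM. Genes with a mean count of at least 50 were called measured, and calls and medians use log2 ratios of scaled counts with a pseudocount of 0.5. Fold values have exact conditional binomial (Clopper-Pearson) 95% intervals, and a 0 was set to a floor of 3 counts per library. No molecular identifiers are named, and reads may repeat a molecule, so intervals and floors cover counting error only. Python 3.11.15, numpy 2.4.6, pandas 2.3.3, scipy 1.17.1 and matplotlib 3.10.9 were used. Ratios, 1.5-fold calls and intervals were tested on simulated Poisson counts with known folds. That simulation held no spread between cultures and did not cover the promoter, exon overlap and shared-word steps.

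No p-value is given, since a single library per medium leaves no spread to test against. The 45 genes, role groups and further lists were chosen with earlier results of these data known. Every measured member was named with its counts, with ratios for those at the ends of each comparison and others by role, and members under the filter with their counts. Exon overlaps and shared 75-base words came from GENCODE transcripts. A planned comparison of protein sequences was not made. Alternatives were DESeq2 1.42.0 size factors, total counts, upper quartile factors, TMM without mitochondrial genes, a mean count of at least 10 or 200, no filter, a pseudocount of 5, a 2-fold threshold and a threshold with an interval excluding 1. No filter with counts of 0 set to the floor was added after the data were seen. Values of some genes on the further lists are not reported here.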

Additional observations from a re-analysis of the deposited data

How the results depend on the processing

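The direction of every median was kept under each alternative run. For PPAT-CM against control-CM it ranged from 0.375 (mean count of at least 200, 17 members) to 0.959 (total counts), for PVAT-CM against control-CM from 0.195 to 0.476, and for PPAT-CM against PVAT-CM from 0.216 to 0.378. Total counts shifted the median of all genes by 0.24, 0.13 and 0.11 in the 3 comparisons, and PARP10, OASL and IFI6 then turned sign, with log2 ratios of 0.15, 0.16 and 0.21 in place of -0.09, -0.08 and -0.04 (PPAT-CM against control-CM), none past 1.5-fold. Other ratios near 0 also turned, those of IFIT5 and PARP10 in PVAT-CM against control-CM and of TRIM25 and IFIT3 between the adipose media with total counts, and those of MX1 and IFIT5 (PPAT-CM against control-CM) and PARP10 (between the adipose media) with upper quartile factors. For PPAT-CM against control-CM total counts left 1 gene lower, and for PVAT-CM against control-CM 0. Higher counts with a mean of at least 200 were 7, 5 and 7 in the 3 comparisons (PPAT-CM and PVAT-CM against control-CM, then PPAT-CM against PVAT-CM), and 1 and 0 genes were lower in those with control-CM. At 2-fold 10, 4 and 4 were higher and 0, 0 and 2 lower. A mean count of at least 10 gave 5, 2 and 7 lower genes. With no filter 7, 2 and 10 were lower and 18 were higher in PVAT-CM, and with libraries at 0 set to 3 counts these were 6, 2, 11 and 17. These filters add or remove members by construction. All other counts of members stayed within 1.5 times. No paired analysis was possible because each medium had 1 library. Depth limits the 12 members under the filter most: BST2, MX2, SAMD9L and XAF1 had at most 5 counts in any library.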

Other observations

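A list of 24 genes also induced by interferon gamma held many genes of antigen processing and presentation. All 14 measured genes of that list were at least 1.5-fold higher in PPAT-CM than in control-CM, with a median log2 ratio of 1.93, and 7 were in PVAT-CM, with a median of 0.62. The shares over all genes were 12.0% and 3.15%. The lowest of the 14 in PPAT-CM against control-CM, WARS1, stood at the threshold, with a ratio of 1.501 (1.39 to 1.62). Upper quartile factors shifted the median log2 ratio of all genes in this comparison by -0.073. This list too was chosen with earlier results of these data known, so its counts are not independent of the libraries. GBP2, GBP3 and PSMB10 pass the count filter only through PPAT-CM. The guanylate-binding protein gene GBP3 had 348 counts in PPAT-CM, 34 in PVAT-CM and 22 in control-CM, and the class I transactivator gene NLRC5 had 591, 106 and 125. NLRC5 was 3.90-fold higher in PPAT-CM (3.21 to 4.77), and its ratio in PVAT-CM was 0.902 (0.690 to 1.18). The immunoproteasome genes PSMB8 and PSMB9, under the filter, had 107, 12 and 6 counts and 133, 7 and 4 counts. The chemokine CXCL10, induced by both kinds of interferon, had 13, 16 and 2 counts and its ratio between PPAT-CM and PVAT-CM, 0.630, lay within counting error (0.279 to 1.40). The count of measured genes at least 1.5-fold lower than in control-CM was 0 in both adipose media, where 8.71% and 3.49% of all genes were. In a list of 14 measured genes 0 is near these shares. Whether either list differs from the other beyond the spread between cultures was not tested, since each medium had 1 library.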
